A study of Mus musculus with 4 samples.

Results

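Smarcd1, Smarcd2 and Smarcd3 encode BAF60A, BAF60B and BAF60C, the 3 alternative forms in which SWI/SNF chromatin remodellers carry their BAF60 subunit. They were taken by gene symbol from a table of transcript levels, in which they are 3 of 20701 symbols and hold 4 RefSeq transcript rows, 2 of them for Smarcd2. All 3 genes passed the filter on low values and were among 11370 genes tested. The RNA came from cardiac progenitor cells (CPCs), obtained by directed differentiation of mouse embryonic stem (ES) cells and sorted at day 5 for EmGFP driven by Nkx2-5. Baf60c KD cells were E14 Tg(Nkx2-5-EmGFP) ES cells stably carrying a short hairpin RNA against Baf60c, the alias of Smarcd3. Control cells were E14 Tg(Nkx2-5-EmGFP) ES cells without that hairpin, and per the study's methods pLKO served as the control construct. There were 2 libraries per group. According to the labels and methods they came from pools of ES cells, virally transduced and drug-selected rather than cloned. How many pools there were is not plainly stated, and no source ties a pool to a library. The p-values therefore speak only of the variation among these libraries, which may be partly technical. The methods list 2 hairpins for Baf60c, and the sources used here do not say which one these cells carried.

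SWI/SNF complexes use the ATPase BRG1 or BRM to move or evict nucleosomes. Each assembly holds a BAF60 subunit, and the 3 paralogs take the same place, so that their relative amounts bear on which kinds of complex a cell can build. BAF60A is the prevailing form in ES cells, BAF60B is known for its role in granulocyte development, and BAF60C is enriched in heart and skeletal muscle, where it links the complex to factors such as Tbx5, Nkx2-5 and Gata4. The comparison of Baf60c KD with control CPCs asked here how far the hairpin lowered Smarcd3, whether the transcripts of the other paralogs rose, and how large the summed BAF60 transcript level was afterwards. Protein was not measured in these data.

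The 3 genes are separate loci whose coding sequences have diverged enough to be told apart base by base, which matters because reads of one paralog must not be taken for another. In the GENCODE M1 annotation of NCBIM37 (mm9), the coding transcripts span chr5:24098440-24107830 (Smarcd3, minus strand), chr15:99532718-99544426 (Smarcd1, plus strand) and chr11:106124493-106134286 (Smarcd2, minus strand). Each has 13 exons, and they encode 483, 515 and 531 amino acids in that order. Over aligned coding bases Smarcd3 was 73.9% identical to Smarcd1 and 72.6% identical to Smarcd2, and Smarcd1 was 70.9% identical to Smarcd2. The longest stretch without a difference was 21 bases between Smarcd3 and Smarcd1 and 18 bases between either of them and Smarcd2.

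Windows were compared over all 3 coding sequences at once, so a pair of paralogs may be more alike elsewhere. Untranslated sequence was not compared. The 60-base window of coding sequence in which all 3 were most alike is shown first. It is 5′ to 3′ on the coding strand and spans the junction of exons 10 and 11, and capitals mark the 11 positions at which the paralogs are not all the same. Smarcd1 differs from Smarcd3 at 10 of these positions and Smarcd2 differs from Smarcd3 at 6. On mm9 the exon ends it joins lie within chr5:24099110-24099458 for Smarcd3, chr15:99539844-99541579 for Smarcd1 and chr11:106125814-106125989 for Smarcd2.
Smarcd3: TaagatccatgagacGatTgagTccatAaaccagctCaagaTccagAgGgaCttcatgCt
Smarcd1: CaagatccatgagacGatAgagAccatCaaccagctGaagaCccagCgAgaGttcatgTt
Smarcd2: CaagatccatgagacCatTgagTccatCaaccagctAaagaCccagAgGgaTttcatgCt

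The window in which they were least alike spans the junction of exons 8 and 9 and is shown for contrast, with 37 positions that are not all the same. Across 989 such windows the median was 39 identical bases of 60. The exon ends lie within chr5:24099815-24100686, chr15:99538196-99538338 and chr11:106126329-106126533 for the genes in the order shown.
Smarcd3: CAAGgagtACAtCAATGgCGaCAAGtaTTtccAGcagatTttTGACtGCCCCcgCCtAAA
Smarcd1: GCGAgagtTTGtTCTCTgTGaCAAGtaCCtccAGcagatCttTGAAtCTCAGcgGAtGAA
Smarcd2: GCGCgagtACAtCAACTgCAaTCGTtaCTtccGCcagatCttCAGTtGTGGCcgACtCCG

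Levels were given as RPKM, the reads of a transcript scaled to its length and to the counted reads of the library. Counted reads were 22714412 and 30398452 in Baf60c KD and 23233027 and 22064092 in control, where a read that falls in several isoforms counts once for every isoform. Genes with an adjusted p under 0.05 in limma are termed called, which held for 54.3% of the genes tested, 36.1% higher and 18.2% lower. On lists for the labelled cell type, all 10 cardiomyocyte and all 9 cardiac progenitor markers passed the filter. Passing does not set the label apart, as 7 of 8 endothelial, 4 of 6 epicardial and 4 of 8 blood markers also passed. On lists of other cell types, Pou5f1 was at most 0.458 RPKM, and Myod1, Myf5 and the leukocyte gene Ptprc were at 0 in every library. Other members of the same lists were present. Tdgf1 was at 26.4 and 25.1 RPKM in Baf60c KD and 38.9 and 42.4 RPKM in control. Acta1 was at 20.7 and 19.7 RPKM in Baf60c KD and 74.6 and 71.3 RPKM in control. Hbb-bh1 was at 10.3 and 12.2 RPKM in Baf60c KD and 2.99 and 2.77 RPKM in control. The groups also differed in markers. The summed level of the 10 cardiomyocyte markers was 2428 and 2483 RPKM in Baf60c KD and 6110 and 5936 RPKM in control, and all 10 were called lower. Summed epicardial markers were 20.3 and 18.8 RPKM in Baf60c KD and 3.82 and 4.68 RPKM in control. Of these, 4 of 4 tested were called higher, and Aldh1a2 was at or below 0.0293 RPKM throughout. Wt1 and Tcf21, with control means of 0.337 and 0.450 RPKM, passed the filter only through Baf60c KD, so their calls as higher were favoured by the filter. Summed blood markers were 21.3 and 22.2 RPKM in Baf60c KD and 6.03 and 6.44 RPKM in control (3 of 4 tested called higher). Endothelial markers summed to 52.1 and 54.1 RPKM in Baf60c KD and 34.5 and 33.0 RPKM in control (4 of 7 tested called higher and 3 lower). The largest part of that difference was Tek, at 15.5 and 15.6 RPKM in Baf60c KD and 2.13 and 1.86 RPKM in control. Of the pluripotency list only Tdgf1 (lower) and Sox2 (higher) were tested. Sox2, with a control mean of 0.107 RPKM, also passed the filter only through Baf60c KD. Of the skeletal muscle list only Acta1 (lower) was tested, and of the neural list only Pax6 (lower). Among the progenitor markers 4 were called higher and 5 lower. They summed to 595.3 and 597.2 RPKM in Baf60c KD and 455.0 and 454.8 RPKM in control. In RPKM, Hand1 (mean 242.1 in Baf60c KD, 155.8 in control) and Hand2 (108.4 and 44.5) rose most. The part of these markers in the changes of the BAF60 paralogs was not tested.

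Smarcd3, the target of the hairpin, was strongly reduced but remained the most abundant paralog. Its level was 46.4 and 46.3 RPKM in the Baf60c KD libraries, from 1803 and 2409 reads, and 173.9 and 166.8 RPKM in the control libraries, from 6910 and 6295 reads. Both Baf60c KD libraries lay far below both control libraries and almost on each other, and in 27.8% of all genes tested both Baf60c KD libraries were below both control libraries. The means were 46.4 ± 0.0535 RPKM in Baf60c KD and 170.4 ± 5.01 RPKM in control (SD, n = 2 each), so that 27.2% of the control level was left. On the log2(RPKM + 1) scale, on which all tests were run, the fold change was −1.85 (SE 0.030, 95% interval −1.92 to −1.79; limma, Benjamini-Hochberg adjusted p = 2.9e-10). In these bulk samples, fewer cells that express a gene and less of its RNA per cell cannot be told apart.

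The position of Smarcd3 among all genes moved accordingly. By RPKM it ranked 814 and 818 among the 11370 genes tested in Baf60c KD and 92 and 94 in control. Only 10 genes fell further on the log2(RPKM + 1) scale. In the annotation, 642 exon bases of Smarcd3 are shared with Chpf2 on the opposite strand, and the counting accepted both strands. Whether the RefSeq models used for the counting share these bases too was not tested. Chpf2, which encodes a chondroitin polymerising factor, had 290 and 398 reads in Baf60c KD and 327 and 252 reads in control, where Smarcd3 had 6910 and 6295. Its groups overlapped, at 3.44 and 3.53 RPKM in Baf60c KD and 3.79 and 3.08 RPKM in control (log2 fold change 0.02, adjusted p = 0.851, limma).

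Smarcd1 was higher after the knockdown in both libraries. It was at 31.2 and 32.3 RPKM in Baf60c KD, from 2226 and 3082 reads, and at 22.6 and 21.4 RPKM in control, from 1647 and 1480 reads. The groups were well apart, since the gap between them was several times the difference between replicates, although 49.6% of all genes tested also had both Baf60c KD libraries above both control libraries. The means were 31.8 ± 0.763 RPKM in Baf60c KD and 22.0 ± 0.859 RPKM in control (SD, n = 2 each), an increase of 44.5%. The log2 fold change was 0.51 (SE 0.041, 95% interval 0.42 to 0.60; limma, adjusted p = 6.28e-06), and 709 of the genes tested, or 6.24%, rose further. Smarcd1 shares 183 exon bases with the predicted gene Gm17349 on the opposite strand, which has no row in the table.

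Smarcd2 also rose, by a smaller fold than Smarcd1, though the difference between the folds was not tested. The row used, NM_001130187, was at 15.6 and 16.5 RPKM in Baf60c KD, from 968 and 1374 reads, and at 13.4 and 12.2 RPKM in control, from 855 and 740 reads. The lowest Baf60c KD library lay above the highest control library, but the gap was closer to the difference between replicates than for the other paralogs. The means were 16.0 ± 0.667 RPKM in Baf60c KD and 12.8 ± 0.842 RPKM in control (SD, n = 2 each), an increase of 24.8%. The log2 fold change was 0.30 (SE 0.053, 95% interval 0.18 to 0.42; limma, adjusted p = 0.00118), and 1866 of the genes tested, or 16.4%, rose further. No exon base of Smarcd2 is shared with another gene in the annotation.

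The second row of Smarcd2, NM_031878, gave the same picture, mostly because it rests on the same reads. It was at 17.2 and 18.5 RPKM in Baf60c KD and 14.9 and 13.6 RPKM in control, with a log2 fold change of 0.30 in a fit of every transcript row (SE 0.053, adjusted p = 0.00111, limma). Its length is 2375 bases, against 2740 for NM_001130187. Its reads numbered 930 and 1334 in Baf60c KD and 824 and 715 in control, which is 96.1% to 97.1% of those of the longer row. The longer row thus had only 38 and 40 more reads in Baf60c KD and 31 and 25 more in control, too few to describe the isoforms apart from each other.

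**Figure D1:**
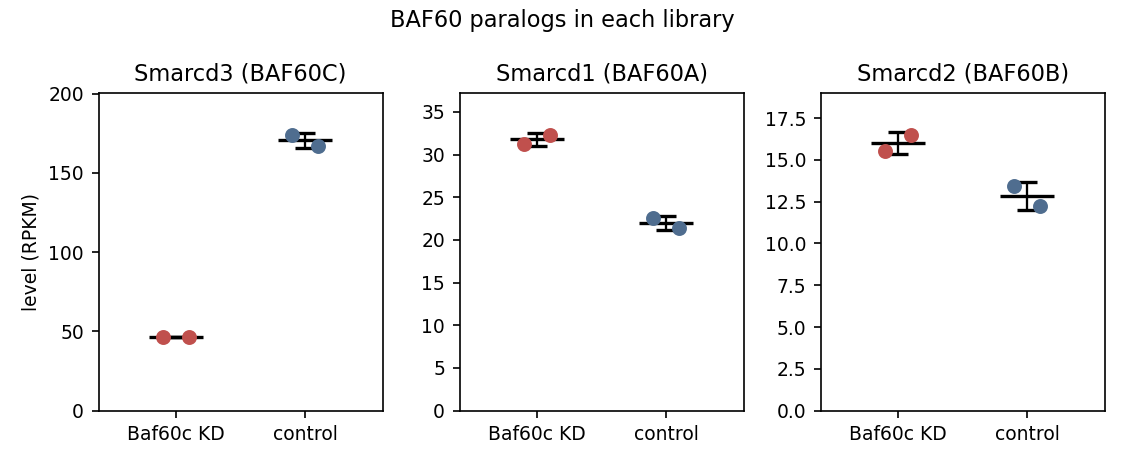
Level of each BAF60 paralog in RPKM (vertical axis, from 0 and different in each panel) in Baf60c KD and control libraries. Points are single libraries, and the bar with whiskers is the mean ± SD of 2 libraries. Smarcd3 is at 46.4 and 46.3 RPKM in Baf60c KD and at least 166.8 RPKM in control, whereas Smarcd1 and Smarcd2 are higher in Baf60c KD, with no overlap between groups in any panel.

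Changes of this kind were common in these cells, and the paralogs are to be read against that. With 36.1% of genes called higher and 77.4% without overlap between groups in either direction, an increase of Smarcd1 and of Smarcd2 past the threshold is a property they share with many genes, while the size of the Smarcd3 decrease is shared with few. The study called a gene at an unadjusted p under 0.05 together with a log2 fold change beyond 0.58 in size. The same cut-offs were applied here to limma p-values and log2(RPKM + 1) changes, where the study used DESeq2. Only Smarcd3 of the 3 paralogs was then called, beside 3.56% of genes tested called lower and 4.8% higher.

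**Figure D2:**
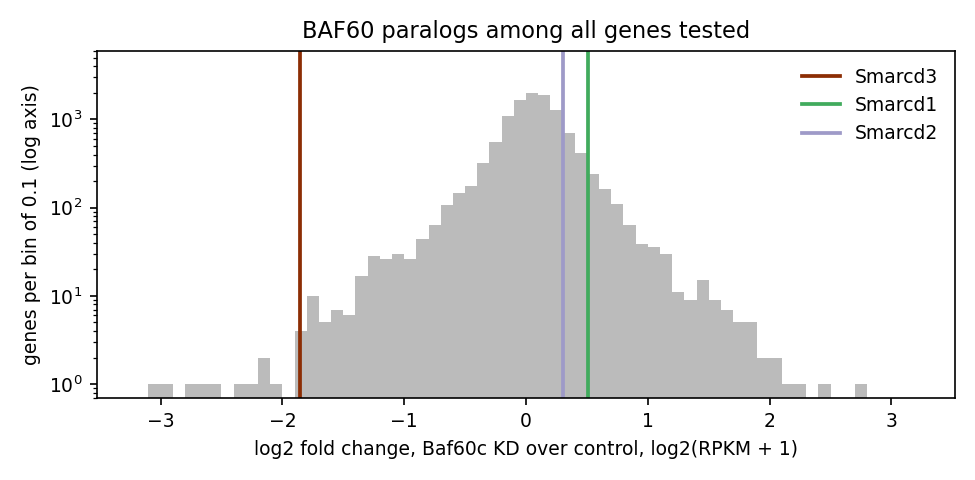
Distribution of log2 fold changes, Baf60c KD over control, of the 11370 genes tested, as genes per bin of 0.1 on a log axis. Vertical lines mark Smarcd3 at −1.85, Smarcd1 at 0.51 and Smarcd2 at 0.30. Smarcd3 stands in the far lower tail, and Smarcd1 and Smarcd2 on the upper shoulder.

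The order of the paralogs was the same in both groups, while the lead of Smarcd3 over the others was smaller in Baf60c KD and that of Smarcd1 over Smarcd2 larger. Smarcd3 exceeded Smarcd1 by 1.49-fold and 1.43-fold in the Baf60c KD libraries and by 7.70-fold and 7.81-fold in the control libraries. It exceeded Smarcd2 by 2.98-fold and 2.81-fold in Baf60c KD and by 12.9-fold and 13.6-fold in control. Smarcd1 exceeded Smarcd2 by 2.01-fold and 1.96-fold in Baf60c KD and by 1.68-fold and 1.75-fold in control. No neighbours in this order overlapped within a group. These ratios are taken within a library and per kilobase, so the scaling of the libraries does not enter them.

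The summed level of the 3 paralogs was 93.2 and 95.1 RPKM in Baf60c KD and 210.0 and 200.5 RPKM in control. The means were 94.2 ± 1.38 RPKM in Baf60c KD and 205.2 ± 6.71 RPKM in control (SD, n = 2 each), so that 45.9% of the control sum was left. A sum over chosen members was given no p-value, and 2 libraries against 2 would not allow a small one in an exact test.

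Smarcd1 and Smarcd2 made up a small part of what Smarcd3 lost. Smarcd3 lost 124.0 RPKM, while Smarcd1 gained 9.79 RPKM and Smarcd2 gained 3.19 RPKM. Together these gains came to 10.5% of the loss, 7.89% from Smarcd1 and 2.57% from Smarcd2. Had both stayed at their control level, 39.6% of the control sum would have been left in place of 45.9%.

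The makeup of the sum changed more than the gains of Smarcd1 and Smarcd2 alone, because the dominant paralog shrank. Smarcd3 made up 49.8% and 48.7% of the summed RPKM in Baf60c KD and 82.8% and 83.2% in control. The share of Smarcd1 was 33.5% and 34.0% in Baf60c KD and 10.8% and 10.7% in control. The share of Smarcd2 was 16.7% and 17.3% in Baf60c KD and 6.40% and 6.11% in control. The muscle-enriched paralog thus made up about as much of the transcript pool as the other 2 together in Baf60c KD, and most of it in control.

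**Figure D3:**
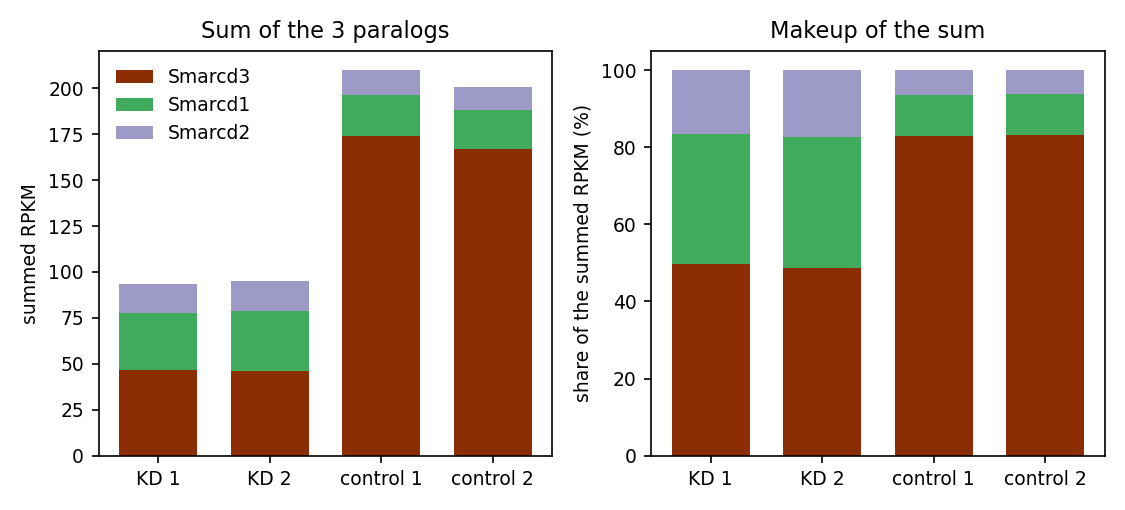
Summed RPKM of Smarcd3, Smarcd1 and Smarcd2 in each library (left) and the share of each in that sum in percent (right), with Baf60c KD libraries left of control libraries. The sum is 93.2 and 95.1 RPKM in Baf60c KD and 210.0 and 200.5 RPKM in control, and the share of Smarcd3 is at most 49.8% in Baf60c KD and at least 82.8% in control.

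The other subunits of the complex changed little beside Smarcd3. Of 27 subunits on a list of canonical BAF, PBAF and non-canonical BAF members outside BAF60, 24 passed the filter, of which 7 were called higher, 5 lower and 12 were not called. Their median log2 fold change was −0.00, beside 0.07 over all genes tested, and the share called was close to the 54.3% of all genes. Changes lay between −0.57 and 0.30 on the log2 scale, so that Smarcd3 fell far beyond all of these subunits and Smarcd1 rose above all of them. In size, however, the fall of Phf10 (−0.57) exceeded the rise of Smarcd1 (0.51). The count of directions depended on the scaling of the libraries: with median-ratio factors, 4 were higher and 10 lower. Over all genes the share of higher calls was 66.4% as deposited and 50.3% with those factors.

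The ATPase gene Smarca4 (BRG1) was at 45.0 and 43.6 RPKM in Baf60c KD and 39.0 and 38.7 RPKM in control, a log2 fold change of 0.18 (adjusted p = 0.00134, limma). The scaffold gene Smarcc1 (BAF155) was at 49.6 and 50.3 RPKM in Baf60c KD and 42.3 and 42.1 RPKM in control, a log2 fold change of 0.24. Both were also called higher with median-ratio factors, at 0.11 and 0.16. Smarca2 (BRM, 0.20), Smarcb1 (0.15) and Smarcc2 (0.13) were called higher as deposited and not with median-ratio factors, and Smarce1 (−0.10) was called with those factors, as lower, and not as deposited. The calls were also lost for Smarca2 without the second Baf60c KD library (0.19) and for Smarcc2 without either Baf60c KD library (0.13 each) or the first control library (0.09).

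Among subunits that define subtypes of the complex, Phf10, a PBAF-specific subunit, fell most on the log2(RPKM + 1) scale. By the ratio of mean RPKM, the low gene Dpf1 fell slightly further, to 0.646 of control against 0.669 for Phf10. Phf10 was at 59.3 and 61.7 RPKM in Baf60c KD and 86.5 and 94.3 RPKM in control, with a log2 fold change of −0.57. Arid2 of PBAF (−0.13), Brd9 of the non-canonical complex (−0.17), Bcl7a (−0.35) and Dpf1 (−0.32), which is known from neurons, were the others called lower. Bcl7c (0.30) and Ss18 (0.23) were called higher. Dpf3, the BAF45 form known from heart and muscle, was at 10.0 and 10.4 RPKM in Baf60c KD and 8.57 and 9.99 RPKM in control, and was not called (0.13, 95% interval −0.02 to 0.28, adjusted p = 0.134, limma). Without the first Baf60c KD library Arid2 (−0.11), Brd9 (−0.13) and Dpf1 (−0.24) were not called, and neither were Arid2 without the second Baf60c KD library (−0.14) and Brd9 without the second control library (−0.12), while Dpf3 was called higher without the second control library (0.23). All of these subunits kept the sign of their change with median-ratio factors.

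**Figure D4:**
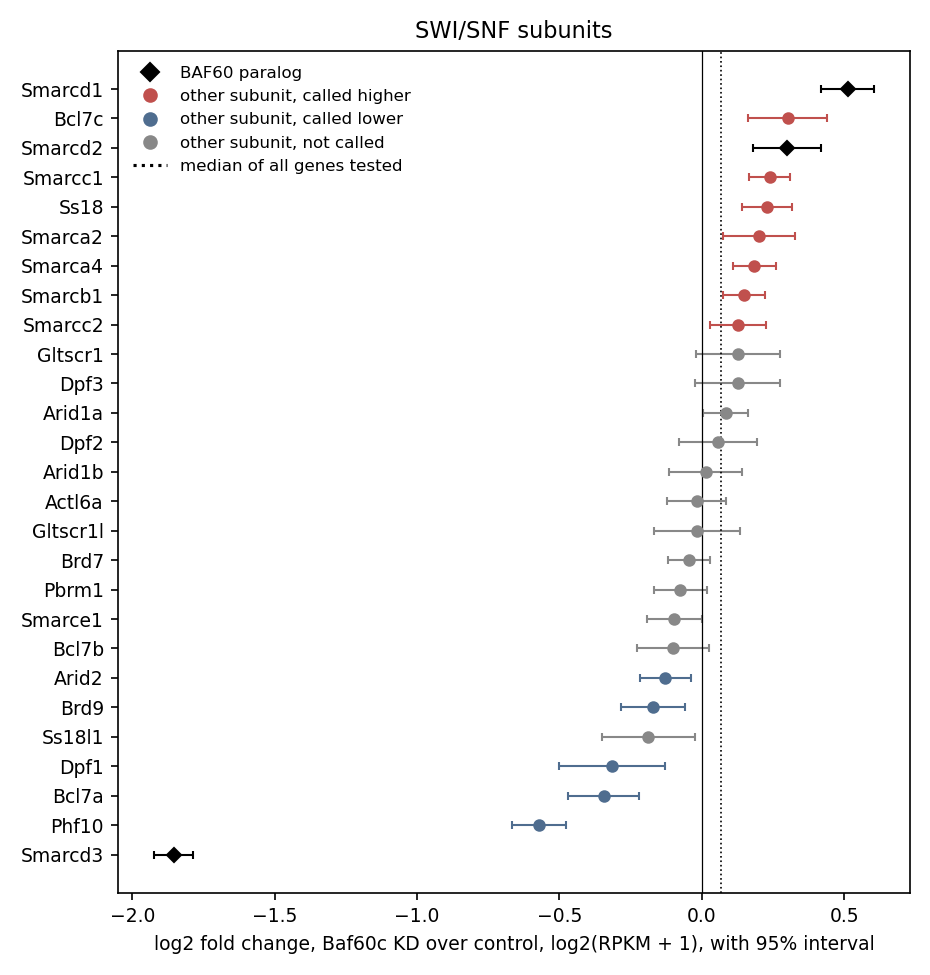
Log2 fold change, Baf60c KD over control, on log2(RPKM + 1) for the 3 BAF60 paralogs (diamonds) and 24 other SWI/SNF subunits (circles, coloured by call), with 95% intervals from the fit. The dotted line is the median of all genes tested at 0.07. Smarcd3 lies at −1.85, away from the range of −0.57 to 0.30 of the other subunits, and Smarcd1 lies above that range.

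Set against other subunits within the same library, the BAF60 sum was also far lower in Baf60c KD, and these ratios do not depend on how libraries are scaled. Relative to Smarcb1, a subunit of canonical BAF and PBAF, the summed BAF60 level was 1.90 and 1.95 in Baf60c KD and 4.71 and 4.61 in control, a 0.413-fold ratio. Relative to the summed ATPase genes Smarca4 and Smarca2 it was 1.84 and 1.93 in Baf60c KD and 4.80 and 4.58 in control, a 0.401-fold ratio. Relative to Smarce1 it was 6.54 and 6.94 in Baf60c KD and 14.1 and 13.2 in control, a 0.493-fold ratio, so that the partner chosen moved the remainder to either side of the 0.459 seen in RPKM. BAF60 transcripts thus stayed above those of the ATPases in every library, although more RNA per kilobase does not say how much protein was made.

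Smarcd1 was higher relative to its partners too, while the ratios of Smarcd2 partly overlapped between groups. These ratios were not tested. Smarcd1 relative to the summed ATPase genes was 0.616 and 0.654 in Baf60c KD and 0.517 and 0.489 in control, with no overlap. Smarcd2 relative to the ATPase genes was 0.3066 and 0.3341 in Baf60c KD and 0.3073 and 0.2799 in control, and relative to the scaffold genes Smarcc1 and Smarcc2 it was 0.2355 and 0.2473 in Baf60c KD and 0.2363 and 0.2130 in control. In both of these ratios the groups overlapped, since the first control library was slightly above the first Baf60c KD library. Relative to Smarcb1, Smarcd2 was 0.317 and 0.338 in Baf60c KD and 0.301 and 0.282 in control, without overlap.

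Transcription factors with which BAF60C works in the heart were mostly lower in the same libraries. Of 8 on the list all were tested, of which 7 were called lower and 1 higher, beside 18.2% of all genes called lower and 36.1% higher. Their median log2 fold change was −0.22, beside 0.07 over all genes. Myocd, the coactivator of Srf, fell most (−0.69), and Gata4 was the one that rose (0.39). The directions depend on the list chosen. The progenitor list shares Tbx5, Nkx2-5, Gata4, Isl1 and Mef2c with this one, and had 4 markers called higher and 5 lower. Isl1, a LIM homeodomain factor of cardiac progenitors, was at 20.1 and 19.9 RPKM in Baf60c KD and 21.9 and 22.1 RPKM in control, a change of −0.13 (adjusted p = 0.0151, limma) that was small beside that of Smarcd3.

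The genes whose profile over the 4 libraries was most like that of each paralog were found by the root mean square difference of centred log2(RPKM + 1) values. For Smarcd3 these were Angpt1, an angiopoietin (difference 0.0142, log2 fold change −1.85), the co-regulator Cited1 (0.0189, −1.83) and the skeletal actin Acta1 (0.0341, −1.80). For Smarcd1 they were the Wnt receptor gene Fzd2 (0.00689, 0.51), the dehydrogenase gene Dhrs1 (0.00819, 0.50) and Gins1 of the replicative helicase (0.0126, 0.49). For Smarcd2 they were the kinase gene Prkd1 (0.00467, 0.29), AW209491 (0.00507, 0.30) and Prosc (0.00608, 0.30). With 4 libraries in 2 groups, likeness means little more than a change of the same size and the same small differences between replicates.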

How the data were processed

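Stranded mRNA libraries of sorted day 5 CPCs were made from 2 Baf60c KD and 2 control samples, grouped and numbered by the sample labels. According to the methods, the authors mapped reads with STAR to mm9, counted exons of RefSeq transcripts on both strands with HOMER and computed the deposited RPKM with edgeR. No tool versions are given in the sources used here. The deposited table also holds the authors' comparison, namely log2 fold changes, unadjusted p-values and a mean signal over libraries, none of which was used.

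The table holds 35707 rows in 2 separately scaled blocks, of 31507 and 4200 rows. The first block, which has all rows of the 3 genes, was analysed. RPKM times length and library total gave whole reads in 100% of values (tolerance 0.001 reads). Per gene, the row with the highest mean RPKM times length was kept. Limma (version 3.58.1, R 4.3.3) was fitted to log2(RPKM + 1) of genes with a mean of at least 0.5 RPKM, with a trended robust prior, two-sided, and p-values were adjusted over every gene tested by the Benjamini-Hochberg method. This scale understates changes of low genes. Replicates were compared on their reads (chi-square per degree of freedom 1.17 in Baf60c KD and 1.52 in control, against 41.7 between the first library of each group). No file repeats another, but such values do not tell separate samples from repeat runs of 1 sample, and the labels were followed. The fit was tested on simulated data.

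The paralogs, lists and tests were chosen with earlier results of these data known. Genes were named by a rule: the 3 paralogs, listed subunits and factors, genes sharing exon bases, and the 3 genes nearest in profile. Coding sequences came from GENCODE M1 transcripts and were aligned globally. Alternatives covered the pseudocount, the filter, library scaling, the transcript row, single libraries left out, a replicate block, and voom on recovered reads, the last added after the data were seen.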

Additional observations from a re-analysis of the deposited data

How the results depend on the processing

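The changes of all 3 paralogs kept their direction under 12 alternatives each, which include the fits without a single library. In the alternatives that kept every library they also stayed past the threshold. The filter, transcript row and replicate block alternatives left these fold changes unchanged by design, and only the p-values could move. The log2 fold change ranged between −1.93 and −1.82 for Smarcd3, between 0.44 and 0.55 for Smarcd1 and between 0.23 and 0.36 for Smarcd2, with a largest adjusted p of 0.00799, for Smarcd2 without the filter (limma). The replicate numbers do not show that libraries are paired (correlation of same-numbered deviations 0.0243 over genes), and with a replicate block Smarcd2 had an adjusted p of 0.0022 and 6166 genes were called, against 6175. The summed BAF60 level was 0.435 of control with median-ratio factors and 0.437 with TMM factors, against 0.459 as deposited, and the gains of Smarcd1 and Smarcd2 were 8.28% and 8.45% of the Smarcd3 loss, against 10.5%. Both scalings lower the Baf60c KD libraries relative to control. With the other Smarcd2 row, added after the data were seen, the share of the sum gained by Smarcd1 was 22.5 percentage points and that gained by Smarcd2 11.7, against 23.0 and 10.8. Without one library at a time, the sum was 0.449 to 0.470 of control, the gains 9.23% to 11.8% of the loss, and 8 to 13 of the 24 other subunits were called. Count models (edgeR, DESeq2) were listed and not run, and voom on recovered reads was fitted in their place. With 2 libraries per group the spread is known only roughly.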
